A study of Rattus norvegicus with 8 samples.

Results

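The subject is a set of 9 genes that mark mesothelium, the flat epithelium lining body cavities, measured in rat abdominal aorta: Msln, Upk3b, Wt1, Krt19, Lrrn4, Gpm6a, Krt8, Krt18 and Upk1b. They were chosen by name from the deposited table, and all 9 were found among its 18090 genes. RNA came from the abdominal aorta of wild-type rats. In 4 FeCl3 libraries a filter paper with 10% iron chloride had lain around the vessel for 5 min, which injures the wall and starts thrombosis, and in 4 saline libraries the paper carried 0.9% saline for 5 min. The study describes the 4 samples of a condition as biologically independent, the labels put all 8 in batch 1, and the sources used here do not state strain, sex, age or time of harvest. Levels are in FPKM, fragments scaled to gene length and library size, so levels of different genes can be compared per length.

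Mesothelial cells cover the surface of the peritoneum, and the retroperitoneal aorta lies close to that covering. They are recognised by the surface protein mesothelin (Msln), the transcription factor Wt1, the membrane protein Lrrn4 and the uroplakin Upk3b, together with the simple-epithelial keratins Krt8, Krt18 and Krt19. Several of these genes are shared with other cells. Keratins 8, 18 and 19 occur in most simple and transitional epithelia, uroplakins plate the surface of the urothelium of bladder and ureter, and Gpm6a is also a neuronal membrane glycoprotein.

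The 8 libraries held 24304434 to 30283292 fragments, as recovered from the steps of the FPKM values. Smooth muscle markers were high in every library, with Acta2 at 1304 to 10404 FPKM and Tagln at 2009 to 11482 FPKM. Haemoglobin genes took 16.4% to 34.1% of fragments after FeCl3 and 16.5% in saline replicate 4, but only 1.30% to 1.63% in saline replicates 1 to 3. Saline replicate 2 stood apart. In it 206 genes, 1.14% of the table, were at or above 1 FPKM and at 10 or more times the next-highest library, against 0 to 16 genes in each of the other libraries.

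The mesothelial label of the set was met in part. Wt1, a defining transcription factor of mesothelium, did not exceed 0.189 FPKM in any library, and Lrrn4 did not exceed 0.191. Msln and Upk3b reached 7.95 and 3.68 FPKM, both in saline replicate 2. Of 22 further mesothelial genes, 5 stayed under 1 FPKM throughout, among them the transcription factor Bnc1 (at most 0.103), the membrane mucin Muc16 (at most 0.0269) and intelectin Itln1 (at most 0.0278). The others reached 1 FPKM in at least 1 library, for example calretinin (Calb2, up to 9.01 FPKM), podoplanin (Pdpn, up to 7.97) and Efemp1 (up to 18.6), and several of these are also made by other cells. Calb2, Pdpn, Bnc1 and Wt1 were highest in FeCl3 replicate 1. Calb2 was also at 6.09 and 8.13 FPKM in saline replicates 3 and 4, where Wt1 had 0 and 1 fragments. The summed FPKM of 10 autonomic neuron genes was highest in these same libraries, and the part of nerve tissue in Calb2 was not tested. In saline replicate 2, where Krt19, Krt8, Krt18 and Upk1b were highest, Calb2 was at 0.172 and Bnc1 at 0.00855 FPKM. Of the 22 further genes, 6 had their highest value in that library, as did 26.1% of all genes. These 6 were Krt7 (206 FPKM), Anxa8 (32.8), Efemp1 (18.6), Tbx18 (9.66), Aldh1a2 (4.25) and Flrt3 (3.57). The 9 genes are therefore described by their leading members. Krt19, Krt8, Krt18 and Upk1b carried 97.1% of the set's summed FPKM in saline replicate 2, the library where that sum was 507 FPKM. In the other 7 libraries the summed FPKM of the 9 genes lay between 5.29 and 10.2, and none of the 9 genes passed the test between FeCl3 and saline.

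**Figure D1:**
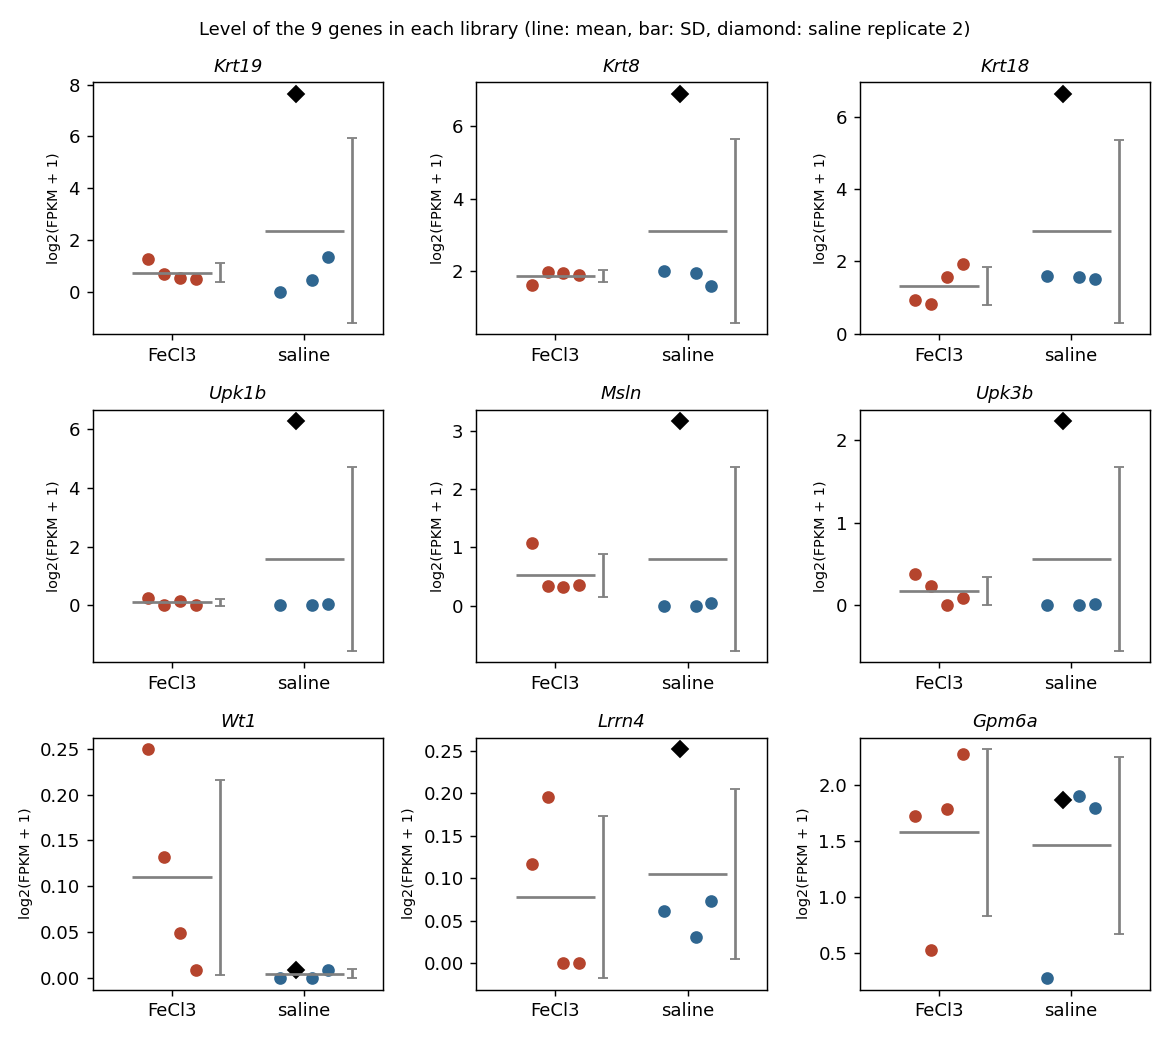
Level of each gene as log2(FPKM + 1) (vertical axis) in the 4 FeCl3 and 4 saline libraries (points), with the group mean (line) and SD (bar); each panel has its own scale. Saline replicate 2 (diamond) lies far above the other 7 libraries for Krt19 (199 FPKM), Krt8 (118), Krt18 (99.2) and Upk1b (75.9), and not for Wt1 or Gpm6a.

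Of the keratins, Krt19, a type I filament protein of simple and transitional epithelia, measured 1.38, 0.609, 0.450 and 0.410 FPKM in FeCl3 replicates 1 to 4. In saline replicates 1 to 4 it measured 0, 199, 0.362 and 1.55 FPKM. The 0 in saline replicate 1 allows up to 0.0718 FPKM, the value of 3 fragments, and such limits cover counting error only. Saline replicate 2 held 129 times the next-highest library, and 97.7% of the FPKM of Krt19 over all libraries. The other 3 saline libraries spanned the whole FeCl3 range.

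Krt8, the type II partner of Krt18, measured 2.08, 2.97, 2.85 and 2.74 FPKM in FeCl3 replicates 1 to 4. In saline it measured 2.98, 118, 2.85 and 2.00 FPKM. Leaving aside saline replicate 2, the 7 libraries were close to each other, with a mean of 2.64 ± 0.418 FPKM (SD, n = 7), and Krt8 rested on 112 to 200 fragments in each of them. Saline replicate 2 had 6378 fragments of Krt8.

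Krt18 measured 0.891, 0.774, 1.96 and 2.84 FPKM in FeCl3 replicates 1 to 4, and 2.05, 99.2, 1.95 and 1.88 FPKM in saline. Without saline replicate 2, the saline mean was 1.96 ± 0.0877 FPKM (SD, n = 3) and lay inside the FeCl3 range. The Krt8 to Krt18 ratio was 1.19 in saline replicate 2, and ran from 0.966 to 3.83 with a median of 1.46 in the other 7 libraries. RefSeq lists 6 Krt18 pseudogenes and 1 of Krt8, so fragments of these genes could be split with near-identical copies.

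Krt8 and Krt18 are neighbours on chromosome 7, with no other protein-coding gene between them in RefSeq. The promoters of Krt8 and Krt18 are shown because both genes stood apart by a similar factor in the same library, at 39.7 and 35.0 times the next-highest one. Those of Upk1b and Wt1 are shown because these genes had the largest and the smallest such ratio of the set, 387 and 0.0318. Promoter sequences (RefSeq, build GRCr8, 250 bases before to 50 after the start of the gene) were found for 7 of the 9 genes. The deposited values were made on build mRatBN7.2, to which these positions do not apply. Krt8 is at chr7:135010290-135010589 on the minus strand, Krt18 at chr7:135035918-135036217 on the plus strand, Upk1b at chr11:75459131-75459430 on the plus strand and Wt1 at chr3:112021759-112022058 on the plus strand. Capitals mark matches on either strand to the TATA box (TATAAA), a GC box (GGGCGG), the AP-1 site (TGANTCA) or the CCAAT box.
Krt8: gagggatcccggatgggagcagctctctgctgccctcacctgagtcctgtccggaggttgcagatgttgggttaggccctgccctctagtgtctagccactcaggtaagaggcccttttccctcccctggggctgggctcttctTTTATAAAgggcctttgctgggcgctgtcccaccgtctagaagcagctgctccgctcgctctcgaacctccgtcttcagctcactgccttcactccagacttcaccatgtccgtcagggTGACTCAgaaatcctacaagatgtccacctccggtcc
Krt18: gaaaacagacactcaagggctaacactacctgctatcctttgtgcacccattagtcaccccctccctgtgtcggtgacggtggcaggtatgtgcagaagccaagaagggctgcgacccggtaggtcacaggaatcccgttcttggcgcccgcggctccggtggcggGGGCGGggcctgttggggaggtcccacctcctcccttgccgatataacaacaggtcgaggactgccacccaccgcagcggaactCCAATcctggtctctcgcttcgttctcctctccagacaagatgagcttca
Upk1b: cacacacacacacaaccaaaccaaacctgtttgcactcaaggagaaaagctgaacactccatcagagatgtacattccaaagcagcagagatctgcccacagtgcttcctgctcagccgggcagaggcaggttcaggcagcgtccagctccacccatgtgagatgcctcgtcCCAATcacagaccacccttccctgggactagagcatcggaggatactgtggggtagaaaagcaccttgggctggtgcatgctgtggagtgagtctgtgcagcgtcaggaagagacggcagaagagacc
Wt1: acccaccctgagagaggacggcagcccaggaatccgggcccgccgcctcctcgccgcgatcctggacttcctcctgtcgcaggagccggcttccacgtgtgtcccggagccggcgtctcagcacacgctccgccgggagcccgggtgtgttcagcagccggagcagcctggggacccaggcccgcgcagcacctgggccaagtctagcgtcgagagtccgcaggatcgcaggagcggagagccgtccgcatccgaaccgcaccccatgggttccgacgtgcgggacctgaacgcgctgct

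The promoters differed in what they hold. That of Krt8 had 2 overlapping matches to the TATA box, 1 on each strand, which 14.2% of 33469 promoters of the same length contain. It also had 1 match to the AP-1 site, found in 7.33%. This AP-1 match lies in the 50 bases after the start of the gene, behind an ATG and in sequence that reads as coding. The promoter of Krt18 had 1 match to the GC box, present in 33.1% of promoters, and 1 to CCAAT, present in 37.5%. The CCAAT match of Krt18 likewise lies in the 50 bases after the start of the gene. The Upk1b promoter had 1 CCAAT, and the Wt1 window, at 71.0% G and C against a median of 51.7% for all promoters, had none of the 4 motifs. A match is a description of the sequence only.

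Type I and type II keratins form filaments as obligate pairs. The 3 keratins of the set and 14 others comprised 10 type I and 7 type II genes. In saline replicate 2 the type I genes summed to 417 FPKM and the type II genes to 424, a ratio of type II to type I of 1.02. In the other libraries both sums were under 8 FPKM and the ratio ran from 0.799 to 2.34, the highest being in saline replicate 1. The keratins that were high with Krt19 in saline replicate 2 belong to several layers of epithelium: Krt7 had 206 FPKM against at most 0.198 elsewhere, the basal keratin Krt5 had 88.5 and Krt15 had 77.1. Krt5 was listed at 0 in the other 7 libraries, and Krt15 reached at most 0.0238 there.

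**Figure D2:**
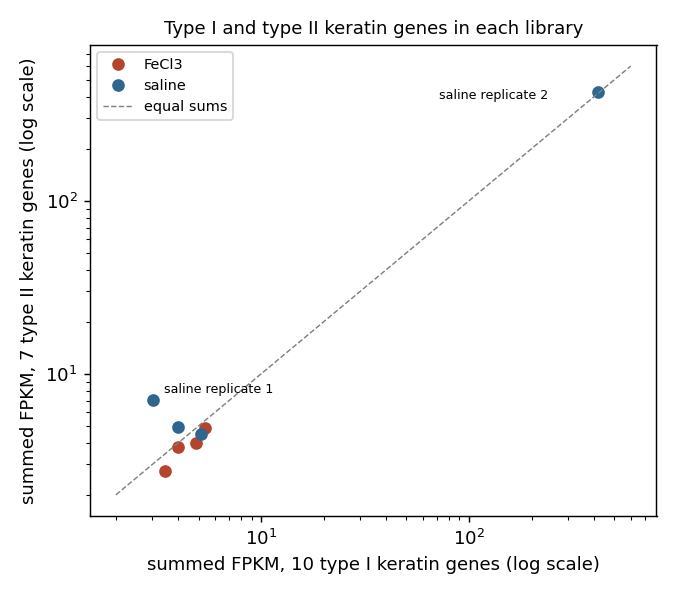
Summed FPKM of 10 type I keratin genes (horizontal, log scale) against that of 7 type II keratin genes (vertical, log scale) in each library; the dashed line marks equal sums. Saline replicate 2, at 417 and 424 FPKM, lies near the line and far above the other 7 libraries.

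Upk1b, a tetraspanin that pairs with the type III uroplakins, measured 0.196, 0.0188, 0.10 and 0 FPKM in FeCl3 replicates 1 to 4. In saline it measured 0, 75.9, 0 and 0.0407 FPKM. Saline replicate 2 thus held 99.5% of the FPKM of Upk1b over all libraries, with 3582 fragments against 18 in the other 7 together. The 0 of FeCl3 replicate 4 allows up to 0.0583 FPKM, and those of saline replicates 1 and 3 allow up to 0.0510 and 0.0515 FPKM.

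Of the 4 other uroplakin genes, 3 were high in the same library. Upk2 had 161 FPKM, Upk1a 128 and Upk3a 72.9 in saline replicate 2, while in the other 7 libraries Upk2 and Upk1a reached at most 0.185 and 0.0757 and Upk3a was listed at 0. The fourth, Upk3bl1, had 2.45 FPKM there and at most 1.37 elsewhere. Upk1b stood at 1.04 times Upk3a, its partner in the urothelial plaque. It stood at 20.7 times Upk3b, the type III uroplakin that mesothelium also makes. Upk2 and Upk1a, the other known pair, stood at a ratio of 1.25.

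Upk3b measured 0.302, 0.170, 0 and 0.0618 FPKM after FeCl3, and 0, 3.68, 0 and 0.0108 FPKM after saline. Saline replicate 2 was 12.2 times the next library, FeCl3 replicate 1. Msln, the glycosylphosphatidylinositol-anchored protein mesothelin, measured 1.11, 0.266, 0.248 and 0.275 FPKM after FeCl3, and 0, 7.95, 0 and 0.0360 FPKM after saline. Saline replicate 2 was 7.15 times the next library, again FeCl3 replicate 1. In saline replicate 2, Msln and Upk3b were thus higher than elsewhere, but at levels well below those of Upk1b and the keratins.

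Wt1 did not follow them. It measured 0.189, 0.0960, 0.0340 and 0.00551 FPKM in FeCl3 replicates 1 to 4, from 34, 18, 6 and 1 fragments. In saline replicates 1 to 4 it measured 0, 0.00601, 0 and 0.00577 FPKM, from 0, 1, 0 and 1 fragments. The library with the highest Upk1b, Krt19, Msln and Upk3b therefore had 1 fragment of Wt1, and the highest Wt1 was in FeCl3 replicate 1. The groups touched, since FeCl3 replicate 4 lay just below saline replicates 2 and 4.

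Lrrn4, a leucine-rich repeat membrane protein, measured 0.0840, 0.145, 0 and 0 FPKM after FeCl3 and 0.0437, 0.191, 0.0220 and 0.0523 FPKM after saline. It rested on 0 to 21 fragments per library. Its highest value was in saline replicate 2, at 1.31 times FeCl3 replicate 2, and the groups overlapped throughout.

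**Figure D3:**
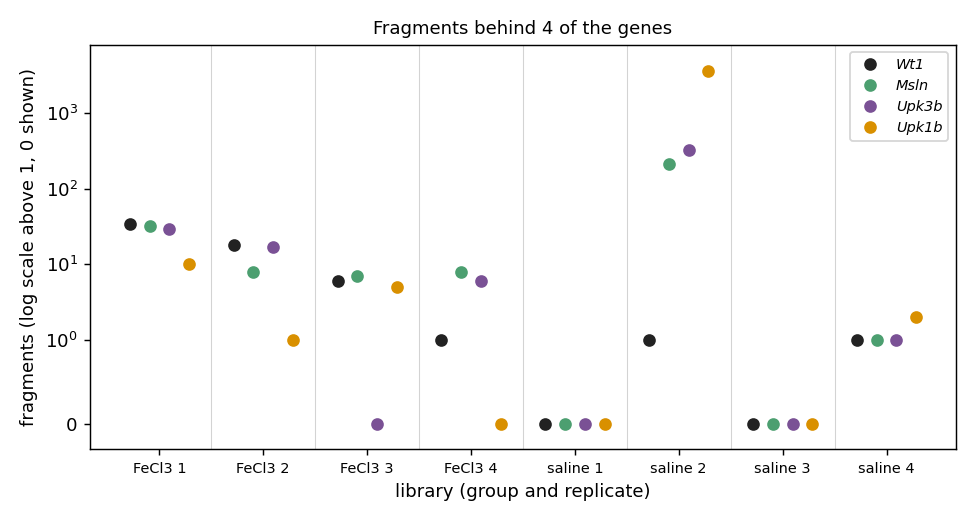
Whole fragments of Wt1, Msln, Upk3b and Upk1b (vertical axis, log scale above 1 with 0 shown) in each of the 8 libraries. Saline replicate 2 has 3582 fragments of Upk1b, 327 of Upk3b, 212 of Msln and 1 of Wt1, whereas FeCl3 replicate 1 has 10, 29, 32 and 34.

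Gpm6a, like Wt1, was not highest in saline replicate 2. It measured 2.31, 0.441, 2.45 and 3.83 FPKM in FeCl3 replicates 1 to 4, and 0.214, 2.65, 2.73 and 2.48 FPKM in saline. The low libraries were FeCl3 replicate 2 and saline replicate 1, 1 in each group, and the other 6 lay between 2.31 and 3.83 FPKM. Since Gpm6a is also neuronal, the 10 autonomic neuron genes are given beside it: their summed FPKM was 1222, 7.75, 138 and 6.5 after FeCl3 and 8.19, 247, 3065 and 827 after saline. FeCl3 replicate 4, with the highest Gpm6a, had the lowest neuronal sum, and the part of nerve tissue in Gpm6a was not tested.

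In the comparison of FeCl3 with saline, 3 of the 9 genes, Gpm6a, Krt8 and Krt18, reached 1 FPKM in at least 4 libraries and entered the test over 11921 genes. None of the 3 passed (limma, Benjamini-Hochberg adjusted p under 0.05), where 0% of all genes tested passed, and none had an unadjusted p under 0.05, where 1981 of all genes did. Mean Krt8 was 2.66 ± 0.397 FPKM in the FeCl3 group and 31.6 ± 57.9 in the saline group (SD, n = 4 each), which gave a change of -1.24 with an SE of 1.07 on the log2(FPKM + 1) scale (adjusted p = 0.559, limma). Mean Krt18 was 1.61 ± 0.973 and 26.3 ± 48.6 FPKM (SD, n = 4 each), a change of -1.52 with an SE of 1.09 (adjusted p = 0.481, limma). Mean Gpm6a was 2.26 ± 1.39 and 2.02 ± 1.21 FPKM (SD, n = 4 each), a change of 0.12 with an SE of 0.48 (adjusted p = 0.912, limma). The median log2 change of all genes tested was -0.25.

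The keratin differences rested on 1 library. Without saline replicate 2, the log2 change of Krt8 was 0.02 with an SE of 0.23 (adjusted p = 0.960, limma). That of Krt18 was -0.25 with an SE of 0.32 (adjusted p = 0.674, limma), and that of Gpm6a 0.25 with an SE of 0.53 (adjusted p = 0.809, limma). The median of all genes was then -0.17 and 0% passed. Without saline replicate 4, 1.34% of all genes passed and still 0 of the 3 members. Fewer cells of a type and less RNA per cell cannot be told apart in such bulk samples.

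The 6 members under the filter on low values were read from a limma fit of all 18090 genes, where the 9 genes had a median log2 fold change of -0.39 against -0.13 for all genes. There 7 of 9 were lower after FeCl3 and 2 higher, 0 of 9 passed, and 0% of all genes passed. The values of Krt19 and Upk1b were -1.62 ± 1.58 and -1.48 ± 1.38 (SE; limma adjusted p of 0.676 and 0.665). With saline replicate 2 also left out, a fit chosen after seeing the data, 8 of 9 genes were higher and 1 lower, with a median of 0.11 against -0.06 for all genes, and 0 of 9 passed, again with 0% of all genes. The sign turned for 6 of the 9 genes. In that fit the log2 change of Msln was 0.51 with an SE of 0.19 (adjusted p = 0.379, limma), and it was the 1 member with an unadjusted p under 0.05, as were 12.6% of all genes.

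**Figure D4:**
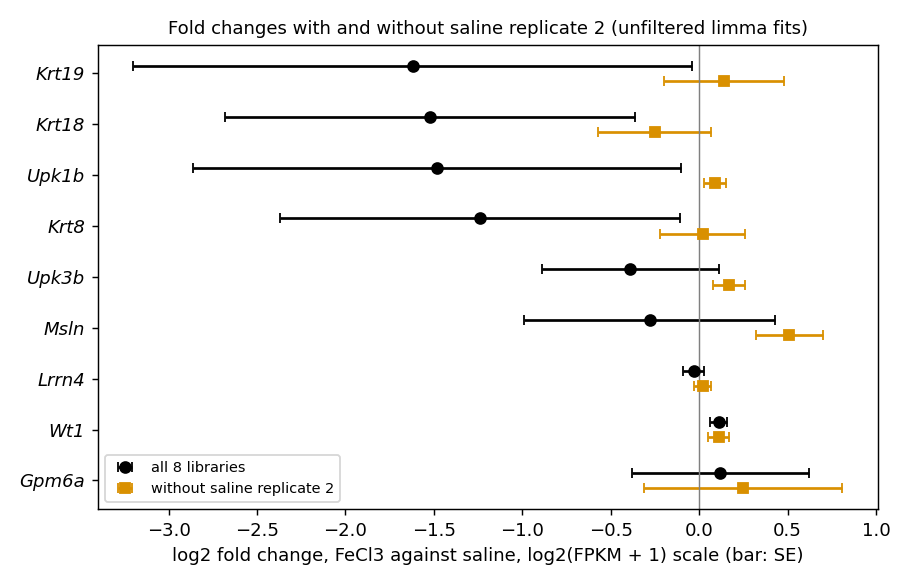
Log2 fold change of each gene, FeCl3 against saline, on the log2(FPKM + 1) scale with its SE (bars), from limma fits of all genes with a value, with all 8 libraries (circles) and without saline replicate 2 (squares). Krt19, Krt18, Upk1b and Krt8 lie between -1.62 and -1.24 with all libraries and between -0.25 and 0.14 without that library.

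The overlap of the groups gave the same account. With all libraries 0 of the 9 genes had FeCl3 and saline values that did not overlap, against 7.26% of the 18090 genes (0.962% higher and 6.3% lower after FeCl3). Without saline replicate 2 there was 1, Msln, whose lowest FeCl3 value of 0.248 FPKM exceeded the highest saline value of 0.0360; 2.06% of all genes were separated in this direction, and 12.1% in either. Msln rested on 7 to 32 fragments in the FeCl3 libraries and on 0, 0 and 1 in those 3 saline libraries.

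Without saline replicate 2, the order of mean levels in saline was Krt8 (2.61 ± 0.535 FPKM), Krt18 (1.96 ± 0.0877), Gpm6a (1.81 ± 1.38) and Krt19 (0.636 ± 0.809; SD, n = 3 each), with the other 5 genes at or below 0.0393 FPKM. After FeCl3 it was Krt8, Gpm6a, Krt18, Krt19 (0.712 ± 0.454) and Msln (0.475 ± 0.424; SD, n = 4 each), with the other 4 at or below 0.133 FPKM. In those 3 saline libraries Krt8 exceeded Krt18 in each, at ratios of 1.45, 1.47 and 1.06, while the spread of Gpm6a covered both keratins. After FeCl3 the spread of Gpm6a again covered the means of both keratins. Krt8 exceeded Krt18 in FeCl3 replicates 1 to 3, at ratios of 2.34, 3.83 and 1.46, and not in replicate 4, at 0.966. Krt19 and Msln lay within each other's spread.

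Companion gene lists place the set. In saline replicate 2, 7 of the 9 genes had their highest value, against 26.1% of all genes, and 5 were at 10 or more times the next library, against 1.14% of all genes: Krt19, Krt8, Krt18, Upk1b and Upk3b. The same held for 3 of 4 other uroplakin genes, 8 of 14 other keratins and 9 of 12 genes of general epithelium, such as the adhesion proteins Epcam (112 FPKM against at most 2.03) and Cdh1 (31.3 against at most 5.47) and the claudin Cldn4 (44.3 against at most 0.127). The summed FPKM of the epithelial list was 288 in saline replicate 2, against 0.933 to 8.74 elsewhere. Of the 22 other mesothelial genes 2 were at 10 or more times, Krt7, which is also in the keratin list, and Anxa8.

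These epithelial and uroplakin genes moved with the set's leading members in 1 saline library, and their part in its levels was not tested; without that library Krt8 differed by 0.02 on the log2 scale, as given above. Of the 22 mesothelial genes 13 were tested and 0 passed, with 8 higher and 5 lower after FeCl3 and a median log2 fold change of 0.05 (0.07 without saline replicate 2). Among the most abundant, Ezr, a linker of membrane and actin, differed by 0.14 on the log2 scale (adjusted p = 0.878, limma) and the sulfatase Sulf1 by 0.16 (adjusted p = 0.809, limma), neither past the threshold. Of the keratin and epithelial lists 2 genes each were tested, of the uroplakins 0, and 0 passed.

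**Figure D5:**
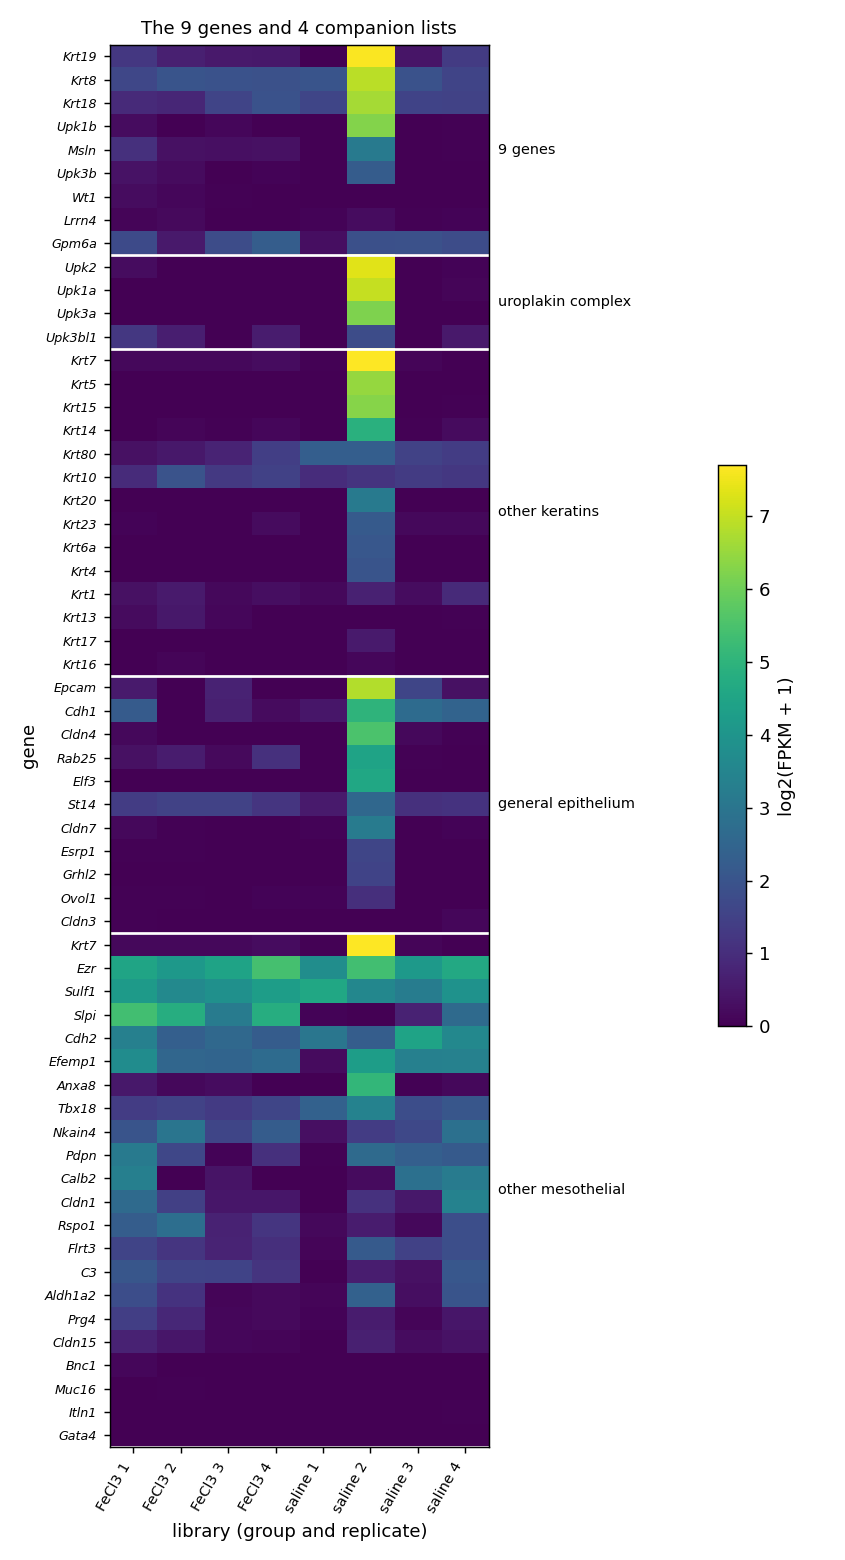
Levels as log2(FPKM + 1) (colour) of the 9 genes and of 4 companion lists (rows; Krt7 is in 2 lists) in the 8 libraries (columns). The column of saline replicate 2 is bright for the keratin, uroplakin and epithelial genes, while Wt1, Lrrn4, Bnc1, Muc16, Itln1 and Gata4 are dark in every column.

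Other cell types were uneven between the libraries too. All 10 leukocyte and all 10 erythroid genes were higher after FeCl3, with median log2 changes of 2.63 and 3.32, and all 10 smooth muscle genes were lower, with a median of -1.0, though 0 of these genes passed; their part in the levels of the 9 genes was not tested. The summed FPKM of 10 white adipocyte genes was 15135, 15503, 559 and 4022 in FeCl3 replicates 1 to 4 and 15.5, 12317, 439 and 3021 in saline. FeCl3 replicates 1 and 2, which had the most Wt1, were also the 2 libraries with the highest adipocyte sums. Saline replicate 2 had an adipocyte sum near theirs and 1 fragment of Wt1. Its fat differed from theirs, with the brown fat gene Ucp1 at 6272 FPKM against at most 76.5 elsewhere. The part of adipose tissue in the Wt1 level was not tested.

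The members fell into patterns that the all-library values hide. Of 36 pairs of members, 14 had a Pearson r of at least 0.90 over the 8 libraries on the log2(FPKM + 1) scale, and 3 without saline replicate 2. Those 3 were Msln with Upk3b (0.90), Msln with Wt1 (0.92) and Upk3b with Wt1 (0.96). Of these 7 libraries, FeCl3 replicate 1 was the highest for Msln (1.11 FPKM), Upk3b (0.302) and Wt1 (0.189), so these r values lean on it. Negative values as large were found in the same 7 libraries for Krt19 with Krt8 (-0.91) and Lrrn4 with Krt18 (-0.90). With all 8 libraries Wt1 had an r of 0.09 with Msln and -0.05 with Upk3b. Krt8 and Krt18, the filament partners, had an r of 0.98 over 8 libraries and 0.20 without saline replicate 2. These values are descriptions over 8 or 7 libraries whose cell makeup was uneven, as given above, and those of Wt1 rest on at most 34 fragments in a library.

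Among 11918 other tested genes, those most like the mean profile of the 3 tested members over the 8 libraries were Sbk1 (Pearson r of 0.99), Slc12a7 (0.96), Dffb (0.95), Cbfa2t3, RGD1566085, Gdpgp1, Rrp1b, Nes and Rbm24 (0.94 each) and Gsg1l (0.93). All 10 were highest in saline replicate 2, as in Sbk1, a kinase gene, at 13.9 FPKM there and 0.0202 to 2.26 elsewhere. Without that library the r of these 10 genes ran from 0.01 for Gsg1l to 0.96 for Dffb, a nuclease subunit, which measured 5.49 FPKM in saline replicate 2 and 2.68 to 3.76 elsewhere. The genes most like Msln were Iba57 and Mipol1 (0.96 each) and Irak1 (0.95), with 0.70, 0.66 and 0.66 without saline replicate 2. These rankings hold only genes past the filter on low values. That left out all 4 other uroplakins, and only 2 of 14 other keratins and 2 of 12 epithelial genes entered. The mean profile lacks Krt19 and Upk1b. It includes Gpm6a, whose r was 0.16 with Krt8 and 0.28 with Krt18 over the 8 libraries.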

How the data were processed

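The authors deposited 1 FPKM value per gene and library for polyA RNA-seq of 8 aortas. fastp, HISAT2, HTSeq and build mRatBN7.2 are named, per the submitters' processing notes; the sources used here state neither their versions nor the annotation and gene lengths. Columns were matched to samples by title, and replicates were numbered in accession order. Whole fragments and library totals were recovered from the steps of the FPKM values, within a tolerance of 0.02, and summed to at least 99.96% of each total. A recovered count is the smallest set of whole numbers that fits a gene, and such counts were used for depth and for 1 alternative.

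Genes reaching 1 FPKM in 4 or more of the libraries entered a moderated two-sided test of FeCl3 against saline on log2(FPKM + 1) values (limma 3.58.1, R 4.3.3, mean-variance trend), and p-values were adjusted over all of them by Benjamini and Hochberg. Adding 1 understates the change of low genes. The method was tested on simulated data. Named genes were the 9 members, the 3 most abundant genes of a companion list, and the genes most alike in profile; others named for being at or near 0, or high in saline replicate 2, were chosen after their values were seen. The members and lists were chosen with earlier results of these data known. Of 149 entries in 14 lists, 145 were found in the table, 1 of them by its gene ID. Of the epithelial list, 1 gene counts in its totals and is not reported here by itself. Promoters were read from RefSeq. Alternatives were other pseudocounts, filters, scalings, weights, a haemoglobin covariate, limma voom on the fragments (whole for 100% of genes; 0 genes passed) and libraries left out. Plots used matplotlib 3.10.9 (Python 3.11.15).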

Additional observations from a re-analysis of the deposited data

Results flagged for a closer look

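In groups of 4 libraries, a value was marked where its gap to the nearest other value exceeded Dixon's critical share of the group's range. Chance gives this in about 1 of 20 groups of normally distributed values. Several groups held FPKM values at or near 0, so that rate need not hold here. Of the 18 groups examined, 8 were marked. Saline replicate 2 lay above the other saline libraries in 6 genes: Krt19 (199 FPKM), Krt8 (118), Krt18 (99.2), Upk1b (75.9), Msln (7.95) and Upk3b (3.68). These 6 marks come from 1 library and are not independent. Saline replicate 1 lay below the other saline libraries in Gpm6a (0.214 FPKM). FeCl3 replicate 1 lay above the other FeCl3 libraries in Msln (1.11 FPKM), where it also had the highest Wt1 and Upk3b of its group.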

How the results depend on the processing

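None of the members tested passed in any of the 24 alternative fits. The median log2 change of all genes was -0.25 with the planned fit, -0.90 with TPM and -0.05 with median-of-ratios scaling. The count of all genes past the threshold, 0 with the planned fit, was 3288 with FPKM rescaled to TPM and 51 without saline replicates 1 and 4, and it ran from 0 to 160 with each library left out, the 160 being without saline replicate 4. Krt8 turned from lower to higher with a haemoglobin covariate (0.72) and without saline replicate 2 (0.02, also with no filter), and ran from -1.75 to 0.02 with each library left out. Krt18 turned with the haemoglobin covariate (0.13) and ran from -1.96 to -0.25. Without saline replicates 1 and 4, Krt8 was -2.56 and Krt18 -2.79. With array weights they were -0.59 and -0.94, and with TPM -1.89 and -2.17. Gpm6a turned with TPM (-0.34), array weights (-0.14), the haemoglobin covariate (-0.35) and without saline replicates 1 and 4 (-0.31), and ran from -0.28 without saline replicate 1 to 0.47 without FeCl3 replicate 2; without FeCl3 replicate 4 it was -0.11. In the unfiltered fit without saline replicate 2, Msln (0.51), Upk3b (0.17), Krt19 (0.14), Upk1b (0.09) and Lrrn4 (0.02) turned; that library holds their highest value. The cause of the other turns was not tested. Of the 10 genes most alike in profile, 1 to 8 were shared when a library was left out, and 1 without saline replicate 2 or FeCl3 replicate 2. No paired analysis was possible because the labels give the 2 groups no shared replicate numbers beyond 1 number in the titles. Lrrn4 and Wt1, at 64 and 61 fragments over all libraries, are limited by depth.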

Other observations

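Saline replicate 2 also held other genes at 10 or more times the next library, named here after their values were seen. Ucp1, the uncoupling protein of brown fat, was at 6272 FPKM against at most 76.5 elsewhere, and the brown fat genes Cox8b and Dio2 were at 834 against 66.5 and at 198 against 5.05 FPKM. Genes of stratified or transitional epithelium in the same library were Sprr1a, a cornified envelope protein (157 FPKM, listed at 0 elsewhere), the water channel Aqp3 (90.1 against 0.345) and Psca (26.1 FPKM). Krt19 ranked 7 and Krt8 ranked 15 by level among these 206 genes.

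Slpi, a secreted protease inhibitor of epithelia and neutrophils, is on the mesothelial list and was likewise picked out for its values. It measured 40.3, 26.7, 8.14 and 26.7 FPKM in FeCl3 replicates 1 to 4 and 0.0506, 0, 0.663 and 5.32 FPKM in saline. The groups thus did not overlap, as was so in this direction for 0.962% of the 18090 genes. Slpi was at 0 in the library where Krt19 was highest. Its log2 fold change was 3.67 ± 0.67 (SE; limma adjusted p = 0.245). The neutrophil gene S100a8 measured 63.8, 69.6, 28.7 and 36.3 FPKM after FeCl3 and 0, 4.58, 9.37 and 49.3 after saline; the part of white cells in the Slpi level was not tested.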
